A study of Mus musculus with 43 samples.

Results

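Full-length transfer RNAs (tRNAs) were followed amino acid by amino acid in the epididymis of wild-type (WT) and Rnase9-12 knockout (KO) mice. The members were the rows of the deposited count tables that hold reads of a whole mature tRNA, 1 row for each isodecoder, which is a tRNA gene product with its own sequence. They numbered 217 of 4890 rows for tissue, 215 of 3178 for luminal fluid and 218 of 4323 for sperm, which is 218 of 5364 different rows over the 3 tables. They were summed into 51 anticodons and into 23 isotypes, meaning the amino acid a tRNA carries, with initiator methionine (iMet), selenocysteine (SeC) and a suppressor-like class (Sup) kept apart.

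All 43 libraries came from FVB mice of 8 to 12 weeks, and the KO mice carried a CRISPR-Cas9 deletion of 4 neighbouring genes of the RNase A family, the Rnase9-12 cluster on chromosome 14. Tissue of the caput, corpus and cauda epididymidis (from the testis end to the storage end) gave 17 libraries, 3 of each genotype per segment except 2 KO corpus libraries. Fluid cleared of sperm and vesicles gave 18 libraries, 3 of each genotype per segment, and cauda sperm gave 8, 4 of each genotype, with RNA of 3 mice pooled for each fluid or sperm library. All RNA was treated with polynucleotide kinase, so that fragment ends left by RNases could be ligated. Tissue libraries were made by ARM-seq, in which a demethylase removes methyl groups that stop reverse transcription, and fluid and sperm libraries by OTTR-seq, which uses a reverse transcriptase that adds adapters by itself. A difference between tissue and fluid therefore cannot be told apart from a difference in library method. Bulk libraries also do not separate less RNA per cell from fewer cells.

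A tRNA reads a codon in messenger RNA with its anticodon and delivers the matching amino acid to the ribosome. Some RNases of the A family can cut it, often in the anticodon loop, which leaves 5′ and 3′ fragments (tRFs) that are abundant in epididymal fluid and in maturing sperm. The deleted genes encode noncanonical members of the family, predicted to lack catalytic activity. The study detected no cleavage of tRNAs by the recombinant proteins in vitro. Full-length reads come from molecules that were not cut. The libraries were selected for short inserts, which favours fragments over whole tRNAs.

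Whole tRNAs were a minor class of tRNA reads, at 0.133 to 1.27% of the tRNA counts of tissue libraries, 0.00108 to 0.335% of fluid libraries and at most 0.05% of sperm libraries. Tissue libraries held 30142156 to 249732714 counts in total, fluid libraries 1948718 to 12320922 and sperm libraries 1134840 to 62128314. The full-length counts were 1601 to 34791 per tissue library, 61 to 24452 per fluid library and 0 to 409 per sperm library. The 5 tissue libraries numbered 3 stood apart from the other 12, and 7 libraries whose titles name the caput carry a section label of cauda (WT caput tissue replicate 3 and all 6 caput fluid libraries). Samples were grouped here by title. The deleted genes are not rows of these small RNA tables, so the genotype labels could not be checked against them.

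In tissue, the histidine tRNA dominated. His took 30.6% of all full-length counts, Glu 17.1%, Gly 10.3%, Lys 8.36% and Asp 7.28%, and these 5 isotypes held 73.7% of the total of 177109. His was the leading isotype in 13 of the 17 libraries and Glu in the other 4, while His-GTG was the leading anticodon in all 17. A single isodecoder, tRNA-His-GTG-2, carried 30.2% of the tissue total, followed by tRNA-Glu-CTC-1 with 10.1% and tRNA-Lys-CTT-3 with 6.3%. By library, His-GTG held 27.3%, 17% and 33.5% of the full-length counts in WT caput and 27.8%, 25.9% and 37.1% in KO caput. It held 22.9%, 16.6% and 24.9% in WT corpus and 21.8% and 20% in KO corpus. In cauda it held 25.2%, 19.9% and 40.6% in WT and 18.7%, 16.7% and 43.5% in KO. The genotypes overlapped in each segment, and the libraries numbered 3 had the highest share in every group that has one.

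In fluid the order was different, and few isotypes carried nearly everything. Asp took 33.8%, Val 20.9%, Glu 20.2%, Gly 12.2% and Gln 6.03% of 53699 full-length counts, 93.2% together. His, first in tissue, took 1.39%. Val led in 11 of the 18 libraries, Asp in 6 and Gly in 1. Among single isodecoders tRNA-Asp-GTC-1 carried 30% of the total, tRNA-Glu-TTC-2 10.7% and tRNA-Val-CAC-2 9.66%. Summed over a group, Asp-GTC was the largest anticodon in caput and corpus fluid of both genotypes and Val-CAC in cauda fluid of both. The sums rest on single libraries in caput, where Asp took 11.7%, 36.2% and 15.4% of the WT libraries and 49.7%, 24.4% and 23.5% of the KO libraries. The first place of Asp in the fluid total depended on 1 library, since KO caput fluid replicate 1 alone held 12163 of the Asp counts.

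**Figure D1:**
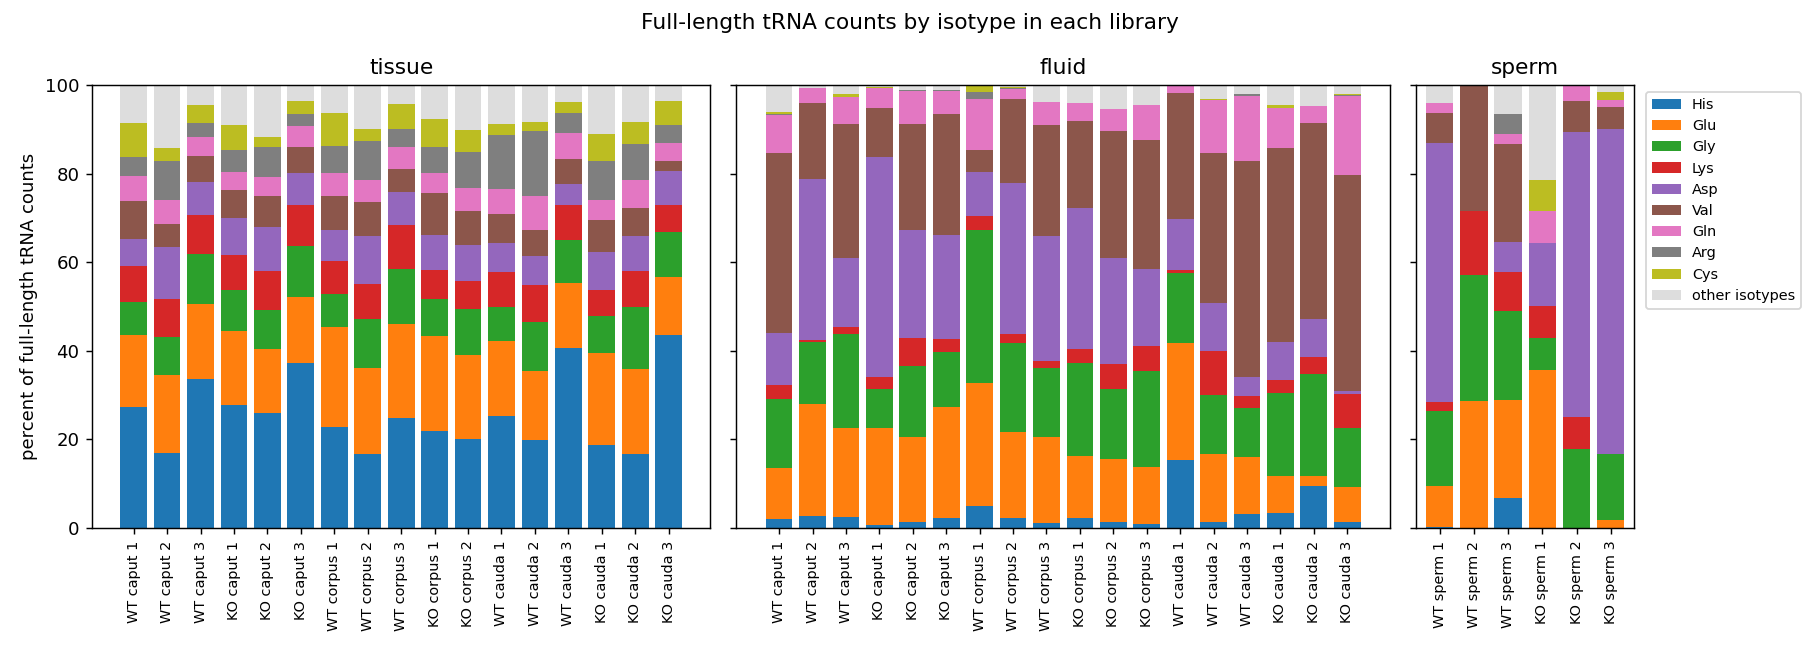
Stacked bars of the percent of full-length tRNA counts taken by each isotype (colours) in each tissue, fluid and sperm library, with the 2 sperm libraries that had no full-length count left out. His and Glu make up the base of the 17 tissue bars, while Asp, Val, Glu and Gly fill most of the 18 fluid bars.

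Sperm libraries held only 563 full-length counts together. Of the 6 with any, Asp led 3, and Glu led or shared the lead in the other 3. Asp, Gly, Glu, Val and Lys made up 92% of the sum, of which WT replicate 1 held 409 counts. WT replicate 1 had 239 Asp counts and the other 3 WT libraries had 0, 3 and 0. The KO libraries had 2, 18, 44 and 0 Asp counts. WT replicate 4 and KO replicate 4 had no full-length count at all, of 45740 and 73749 tRNA counts, which allows shares of up to 0.00656% and 0.00407%. These limits, like the intervals given further on, cover counting error only.

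Many members were not seen. Tissue had at least 1 count for 157 of the 217 isodecoders, fluid for 89 of 215 and sperm for 32 of 218. With 10 or more counts in every library of a group taken as detection, 16 of the 23 isotypes were detected in WT caput tissue, 17 in KO caput, 17 and 17 in WT and KO corpus, and 12 and 14 in WT and KO cauda tissue. In fluid the numbers were 7 and 9 in WT and KO caput, 2 and 7 in WT and KO corpus, and 5 and 3 in WT and KO cauda, and no isotype was detected in either sperm group. Phe and Tyr had no full-length count in any fluid library, and Sup had none in any of the 43 libraries. For testing, 18 isotypes, 32 anticodons and 53 isodecoders passed the filter on low counts in tissue and 11, 15 and 24 in fluid. None passed in sperm.

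Within an isotype, the anticodon that carried the full-length reads also differed between tissue and fluid (percent of the isotype's counts, mean ± SD over libraries with at least 10 counts of it). Glu-CTC made up 60 ± 6.43% of Glu in tissue (n = 17) and 7.63 ± 4.77% in fluid (n = 17), and the ranges, 50 to 71.6% and 0.328 to 15.8%, did not overlap. The rest of Glu was Glu-TTC. Gln-CTG made up 93.3 ± 2.27% of Gln in tissue (n = 17) and 41.3 ± 12.3% in fluid (n = 15), and Val-TAC 76.8 ± 9.47% of Val in tissue (n = 17) and 23.3 ± 5.64% in fluid (n = 17). Neither pair of ranges overlapped. Gly-CCC made up 28.1 ± 4.46% of Gly in tissue (n = 17) and 1.52 ± 1.23% in fluid (n = 18), while Gly-GCC held a like share in both, 60.8% and 59.8%. Lys was nearly all Lys-CTT in both, with 99.5% and 94.3%. These are descriptions with no test, because tissue and fluid differ in library method.

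**Figure D2:**
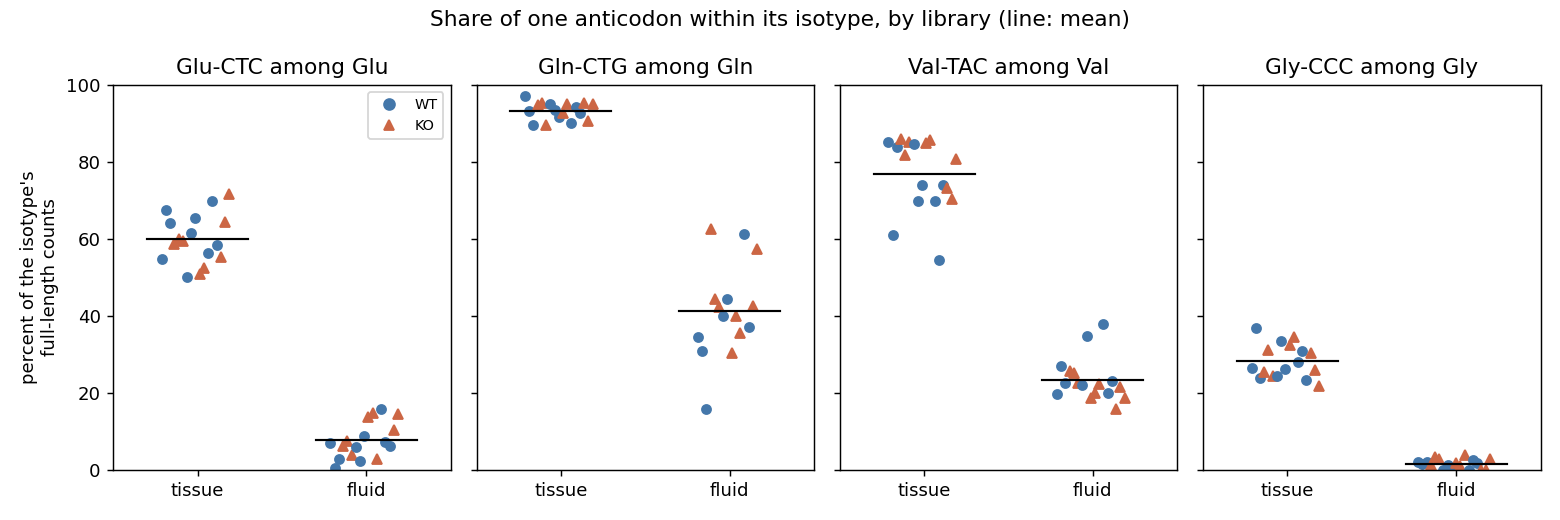
Share of 1 anticodon within the full-length counts of its isotype, in percent, for each WT (circles) and KO (triangles) tissue and fluid library with at least 10 counts of the isotype, with lines at the mean. Glu-CTC, Gln-CTG, Val-TAC and Gly-CCC lie higher in tissue than in fluid without overlap.

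The first comparison asked whether deletion of the 4 genes changed how much of the tRNA pool was full-length, for all amino acids together. In caput fluid the share of tRNA counts was 0.0343 ± 0.0164% in WT and 0.167 ± 0.145% in KO (n = 3 each), and in corpus fluid 0.00903 ± 0.007% in WT and 0.0319 ± 0.00472% in KO (n = 3 each). In both segments every KO library lay above every WT library. The exact two-sided permutation test gave p = 0.1 for each, the smallest value that 3 against 3 allows, and 0.334 after Benjamini-Hochberg adjustment over the 7 comparisons. In cauda fluid the shares overlapped, 0.0163 ± 0.0201% in WT and 0.0131 ± 0.0113% in KO (exact permutation p = 1).

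In tissue the shares were 0.234 ± 0.0883% in WT and 0.275 ± 0.0427% in KO caput (exact permutation p = 0.6), 0.447 ± 0.308% in WT (n = 3) and 0.453 ± 0.0554% in KO corpus (n = 2, exact permutation p = 0.8), and 0.312 ± 0.0813% in WT and 0.797 ± 0.446% in KO cauda (exact permutation p = 0.2). In sperm they were 0.0163 ± 0.0228% in WT and 0.00135 ± 0.00101% in KO (n = 4 each, exact permutation p = 0.143). Without WT sperm replicate 4, 1 of the 2 libraries at 0, the exact permutation p was 0.0286. None of the 7 comparisons passed 0.05 after adjustment, and only the sperm comparison could have reached it before adjustment (smallest possible p 0.0286).

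**Figure D3:**
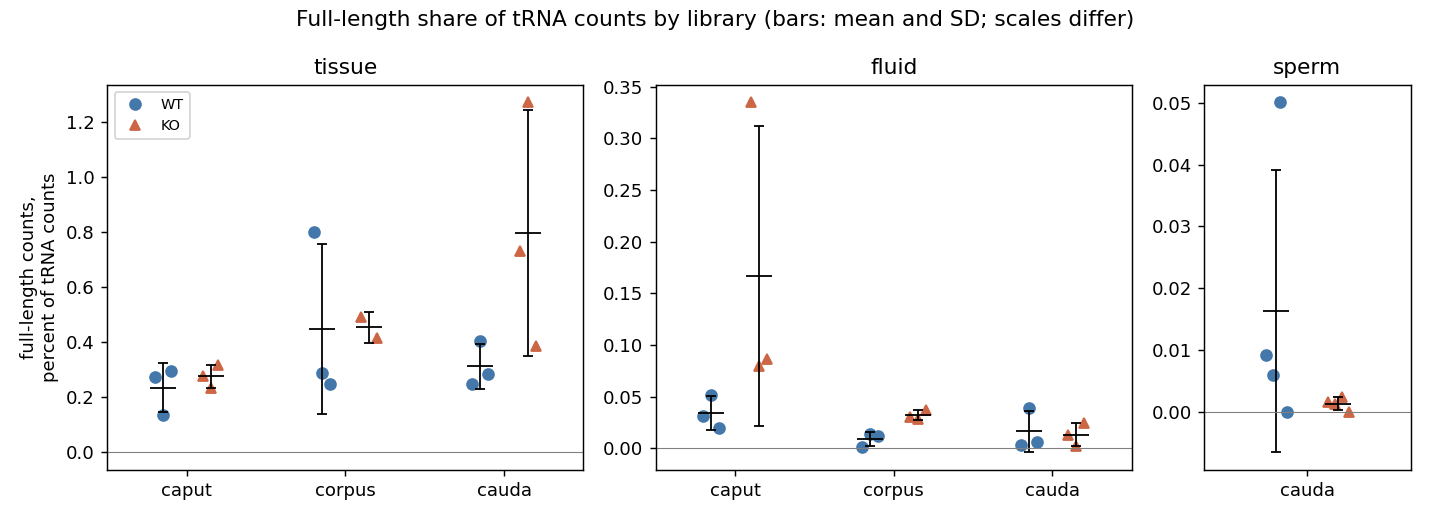
Full-length reads as a percent of all tRNA counts in each library (points), with the mean and SD of each group, on a separate axis for tissue, fluid and sperm. KO caput and corpus fluid libraries all lie above the WT libraries of the same segment, and the other groups overlap.

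The next question was how each amino acid's full-length tRNAs differed between the genotypes, segment by segment. The test was edgeR's quasi-likelihood test, and an isotype was called at an adjusted p under 0.05 with a fold change over 2, which is 1 on the log2 scale. P-values were adjusted over all 2916 tissue or 1517 fluid features, and log2 fold changes are given with their standard error (SE). Levels are CPM, counts scaled to a common library size. Mature tRNAs have similar lengths, so levels were not divided by length. These p-values rest on the spread between libraries within groups, with 1 estimate per feature shared by all tissue or all fluid groups.

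In corpus fluid, 2 of the 11 tested isotypes were called, both higher in KO, where 19.2% of all 1517 features were called higher and 2.37% lower. They were iMet, the tRNA that starts protein synthesis, and Leu. A share of 2 in 11 is close to the background. Full-length iMet had 0, 0 and 1 counts in the WT libraries and 3, 5 and 2 in KO. The KO libraries were all higher, on at most 5 counts each. The ratio of the pooled counts was 25.9, with a counting interval of 3.68 to 1120, and the fitted log2 fold change was 4.19 (SE 1.36, adjusted p = 0.0318). Leu had no count in any WT library and 5, 3 and 2 in KO (edgeR adjusted p = 0.0318). Its pooled KO level was 8.63 times a floor of 3 counts over the WT group. The counting interval of its KO to WT ratio began at 5.8. Its 10 counts fell on 5 anticodons, led by Leu-CAA and Leu-TAA with 3 each. Neither call was stable. No isotype was called without WT replicate 1, WT replicate 2, KO replicate 1 or KO replicate 2, and iMet alone was called without WT replicate 3 (adjusted p from 0.0397 to 0.173 for iMet and from 0.0464 to 0.131 for Leu over these and the omission of KO replicate 3).

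The isotypes that carried most of the corpus fluid reads were not called. Asp was at 0.896, 36 and 20.1 CPM in WT and at 73.4, 45.6 and 41.8 CPM in KO (log2 fold change 1.49, SE 0.995, adjusted p = 0.303). Val was at 0.448, 20.1 and 17.9 CPM in WT and at 45.3, 54.3 and 70.4 CPM in KO (log2 fold change 2.14, SE 0.91, adjusted p = 0.0986). Glu was at 2.54, 20.6 and 13.9 CPM in WT and at 32.1, 27.3 and 31.1 CPM in KO (log2 fold change 1.28, SE 0.869, adjusted p = 0.315). For each of these, every KO library lay above every WT library, and WT replicate 1, with 61 full-length counts in all, was far below the other 2.

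Lys had 0.299, 2.17 and 1.01 CPM in WT and 7.22, 10.8 and 13.7 in KO, with an adjusted p of 0.0679. SeC, the tRNA for selenocysteine, which is inserted at UGA codons of selenoprotein messages, had 0, 0.565 and 1.41 CPM in WT and 4.81, 7.29 and 6.63 in KO, with an adjusted p of 0.0864. In all, 9 of the 11 isotypes had no overlap between KO and WT and 8 had an unadjusted p under 0.05. Of all 1517 features, 530 had such a p. How many of all features had no overlap was not counted. The fold changes of all 11 were positive, with a median of 2.14, against 0.38 over all features. With scaling factors taken from RNAs other than tRNA and rRNA, the median of all features shifted by -0.86 (log2), all 11 stayed positive with a median of 1.35, and none was called (smallest adjusted p = 0.0561). The KO corpus fluid libraries were also the shallowest in fluid, with 1948718 to 3373869 counts against 3989262 to 10172577 in WT, and the part of depth in these differences was not tested.

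In caput fluid no isotype was called by edgeR or DESeq2, and of all features 0% were called higher. At an unadjusted p under 0.05 there were 4 isotypes by edgeR and 5 by DESeq2, against 148 of all 1517 features by edgeR. Lys was at 8.51, 2.45 and 3.14 CPM in WT and at 62.8, 36 and 27.2 CPM in KO (log2 fold change 3.14, SE 1.1, adjusted p = 0.332). Its KO libraries all lay above its WT libraries. Asp was at 31.4, 152 and 28.3 CPM in WT and at 1145, 135 and 212 CPM in KO (log2 fold change 2.82, SE 1.03, adjusted p = 0.342), so that the groups overlapped and KO replicate 1 set the mean. Glu was at 30.9, 106 and 37 CPM in WT and at 505, 107 and 228 CPM in KO (log2 fold change 2.27, SE 0.873, adjusted p = 0.345). Val was at 109, 72.2 and 55.5 CPM in WT and at 255, 133 and 247 CPM in KO (log2 fold change 1.43, SE 0.875, adjusted p = 0.634).

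Gln, Glu, Gly, Lys and Val, 5 of 11, had no overlap between the genotypes in caput fluid, though for Glu the nearest libraries, at 106 and 107 CPM, were nearly level. How many of all features had no overlap was not counted. The fold change was positive for 10 of the 11, with a median of 1.43 against 0.08 over all features. SeC was the exception, with 9.84, 0.35 and 0.299 CPM in WT and 1.98, 1.89 and 2.57 in KO, and its fold change was positive without WT replicate 1. When only the 6 caput fluid libraries entered the fit, 4 of 11 isotypes were called, Gln, Gly, Lys and Val, where 8.08% of 1213 features were called higher. Within Gly the makeup also differed in caput fluid, with Gly-GCC at 43.4 to 55.5% of Gly in the WT libraries and 62.3 to 80.4% in KO. In corpus and cauda fluid the Gly-GCC shares of the genotypes overlapped, and the difference was not tested.

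**Figure D4:**
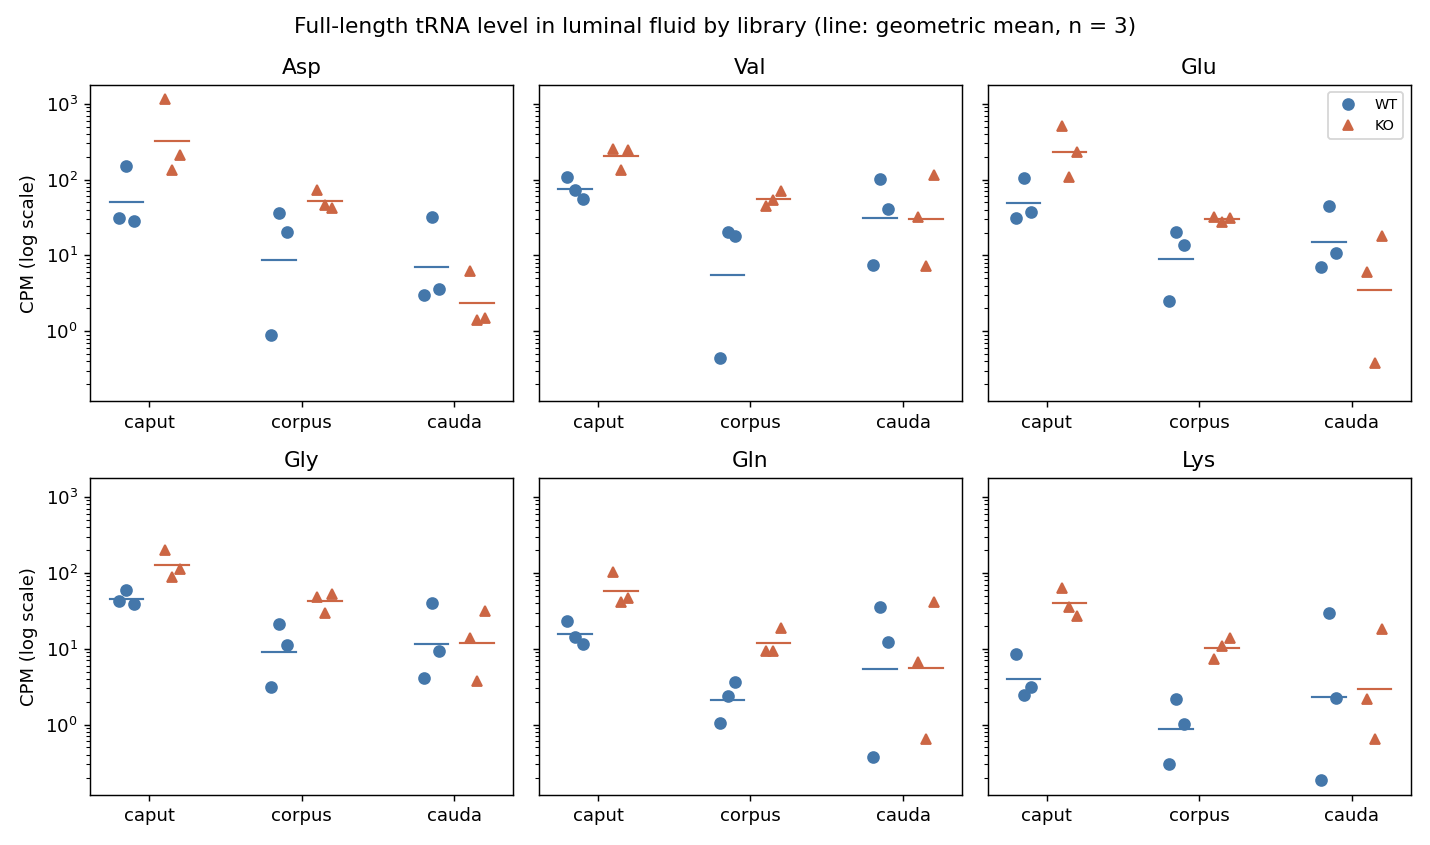
Full-length CPM (log axis) of 6 isotypes in each WT (circles) and KO (triangles) fluid library by segment, with lines at the geometric mean of 3 libraries. In corpus fluid the KO points lie above the WT points for all 6 isotypes, in caput fluid for all but Asp, and in cauda fluid the genotypes overlap.

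In cauda fluid the genotypes overlapped for all 11 tested isotypes. Neither edgeR nor DESeq2 called one, none had an unadjusted p under 0.05, and 0% of all features were called lower. Asp was at 3.04, 32.6 and 3.57 CPM in WT and at 6.32, 1.42 and 1.5 CPM in KO (log2 fold change -2.03, SE 1.04, adjusted p = 0.583). Val was at 7.54, 101 and 41.3 CPM in WT and at 32.2, 7.22 and 115 CPM in KO (log2 fold change 0.04, SE 0.862, adjusted p = 0.993). WT replicate 2 held most of the Asp in WT, and without it the log2 fold change of Asp was 0.08. Glu had a log2 fold change of -1.38 and Gly of -0.14, and 3 of the 11 fold changes were positive, with a median of -0.57. Without WT replicate 2, 10 of the 11 were positive, with a median of 1.71, so the direction in cauda fluid turned on that library.

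Whether the KO change differed between corpus and cauda fluid was tested as an interaction. One isotype passed, iMet, with a difference of 5.76 on the log2 scale (SE 1.74, adjusted p = 0.0461), where 6% of all features were called higher. Its cauda fluid levels were 0, 1.23 and 0 CPM in WT and 0.14, 0.129 and 0.166 in KO. The WT cauda value above 0 came from replicate 2, and without that library the difference was 0.76 (adjusted p = 0.839). Among omissions of 1 library, iMet passed only in that of WT cauda replicate 1. It did not pass with DESeq2's size factors, library totals or TMM factors from other RNAs (adjusted p from 0.0501 to 0.0911). All 11 differences were positive, with a median of 2.65 against 0.33 over all features. Without WT cauda replicate 2, 9 of the 11 were positive, with a median of 0.72.

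In cauda tissue no isotype was called by edgeR or DESeq2, and each gave 2 of 18 at an unadjusted p under 0.05. By edgeR, 352 of all 2916 features had such a p, so the 2 isotypes were near that background. Of all 2916 features, 0.0343% were called higher and 0.892% lower. Cys was at 1.33, 1.53 and 2.31 CPM in WT and at 7.71, 7.81 and 4.11 CPM in KO (log2 fold change 1.91, SE 0.707, adjusted p = 0.249). Asp was at 3.45, 5.23 and 4.6 CPM in WT and at 10.3, 12.9 and 5.82 CPM in KO (log2 fold change 1.12, SE 0.396, adjusted p = 0.241). For both, all KO libraries lay above all WT libraries, which held for no other isotype. How many of all features lay so was not counted. Without the libraries numbered 3, which stood apart, Asp was called (log2 fold change 1.4, adjusted p = 0.0288) and Cys was not, where 8.04% of 2536 features were called higher, so 1 isotype of 17 lies below that background. All 18 fold changes were positive, with a median of 0.9 against 0.21 over all features. Without KO replicate 2, 12 of 17 were positive, with a median of 0.15.

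The replicate numbers were taken to pair the cauda tissue libraries. That pairing is an assumption drawn from the deviations of these same libraries. Libraries of different genotypes cannot share an animal, and no pairing is stated. With the number as a block 3 isotypes were called: Cys (log2 fold change 1.86, SE 0.43, adjusted p = 0.0139), SeC (1.15, SE 0.326, adjusted p = 0.0425) and Asp (1.06, SE 0.311, adjusted p = 0.0436). That fit called 4.66% of all 2916 features higher. The sign of the small changes depended on the scaling. Scaling by library totals shifted the median of all features by -0.56, and then 10 of the 18 full-length fold changes were positive, with 11 in caput and 7 in corpus. Factors from other RNAs gave 10 in cauda, 14 in caput and 17 in corpus. The KO cauda tissue libraries had fewer tRNA counts, at 0.842%, 0.699% and 2.11% of all counts against 2.02%, 1.29% and 4.8% in WT.

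None of the 3 most abundant isotypes of cauda tissue was called. His was at 13.4, 16 and 38.2 CPM in WT and at 22.9, 26.9 and 33.7 CPM in KO (log2 fold change 0.3, SE 0.59, negative when scaled by library totals). Glu was at 9.06, 12.4 and 13.9 CPM in WT and at 25.4, 30.9 and 10.3 CPM in KO (log2 fold change 0.91, SE 0.502). Gly was at 4.05, 8.93 and 9.06 CPM in WT and at 10.2, 22.8 and 7.75 CPM in KO (log2 fold change 0.89, SE 0.511). For Glu and Gly, KO replicates 1 and 2 were above all WT libraries and KO replicate 3 was not.

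In caput and corpus tissue no isotype was called or reached an unadjusted p under 0.05 by either edgeR or DESeq2, and 0% of all features were called higher in either segment. The log2 fold changes in caput were 0.35 for His (SE 0.589), 0.08 for Glu (SE 0.497) and 0.33 for Gly (SE 0.505). In corpus they were 0.05 for His (SE 0.658), 0.04 for Glu (SE 0.555) and 0.06 for Gly (SE 0.564), with 2 KO libraries. The medians over the 18 isotypes were 0.26 in caput and 0.09 in corpus, against 0.06 and -0.09 over all features. Caput His ran from 5.78 to 30.8 CPM in WT and from 18.4 to 41.1 CPM in KO. Without WT caput replicate 3, whose section label reads cauda, the caput log2 fold changes were 0.66 for His and 0.68 for Gly. In the interaction test of cauda against caput tissue edgeR called no isotype, with 1 at an unadjusted p under 0.05 and 0% of features called higher, and DESeq2 also gave 0 calls and 1 such p. By edgeR, 130 of all 2916 features had such a p.

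**Figure D5:**
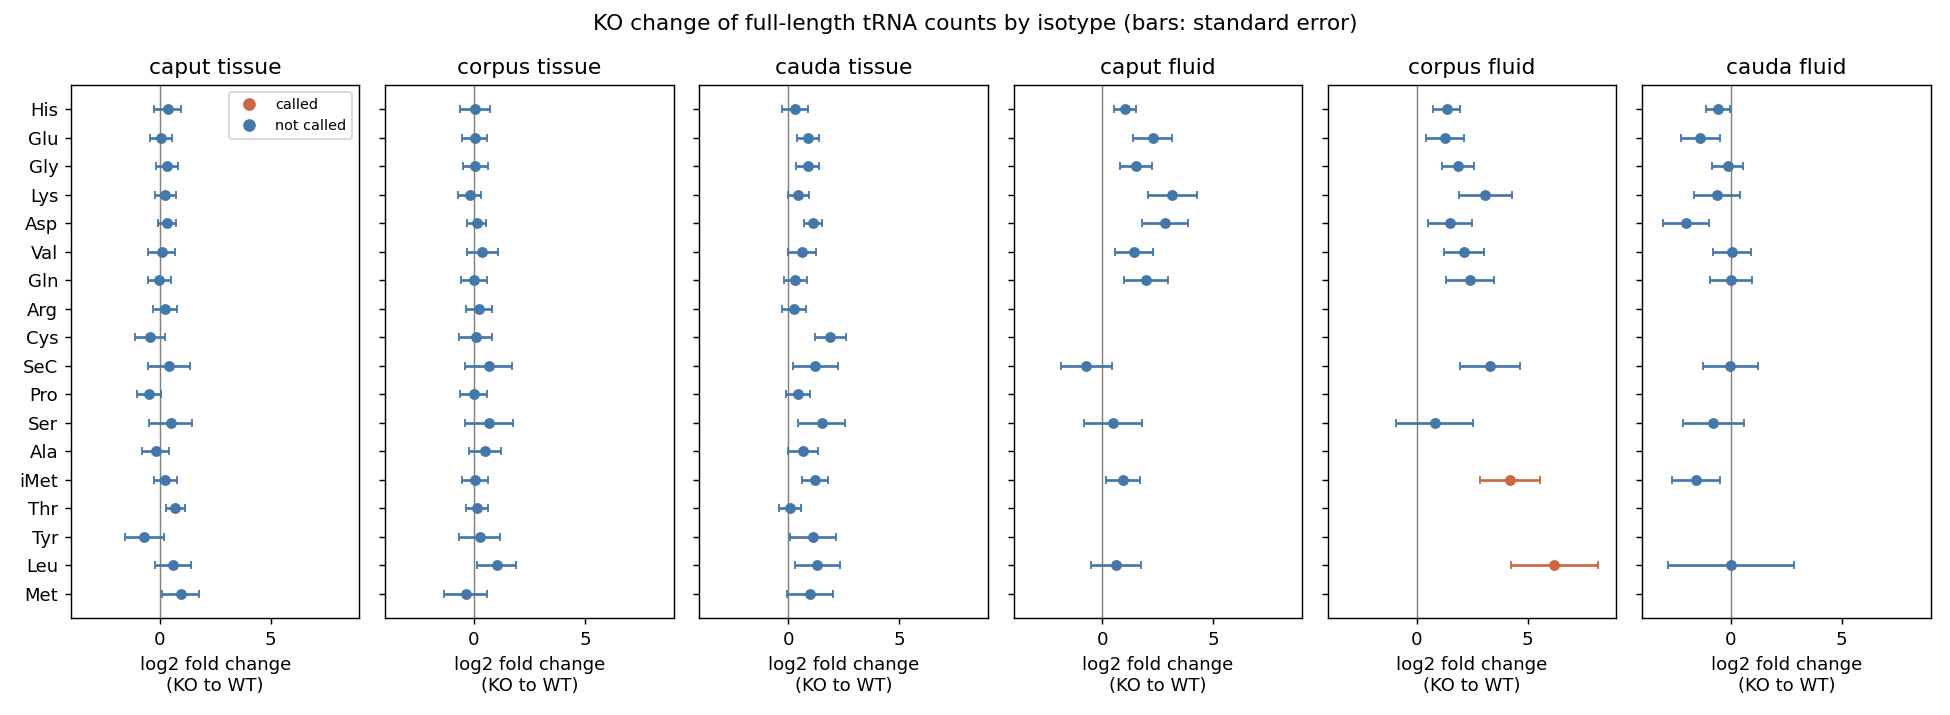
Log2 fold change of full-length counts, KO against WT, for each tested isotype in each segment of tissue and fluid, with the SE. In fluid the changes lie above 0 in corpus for all 11 isotypes and in caput for 10, and scatter around or below 0 in cauda, while of the tissue segments cauda has all 18 above 0 (10 of 18 when scaled by library totals).

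Set against the other reads of the same tRNAs, the full-length reads moved differently in some groups. In cauda tissue all 18 full-length fold changes were positive (10 when scaled by library totals), while 0 of 23 for 5′ tRFs, 3 of 23 for 3′ tRFs and 0 of 23 for other fragments were, with medians of -0.54, -0.5 and -0.76. As a share of an isotype's own tRNA counts, the mean of full-length reads was higher in KO cauda tissue for 18 of 18 isotypes, as against 13 of 18 in caput tissue, 14 of 18 in corpus tissue, 10 of 11 in caput fluid, 9 of 9 in corpus fluid and 3 of 11 in cauda fluid. In cauda tissue Asp was at 0.976 ± 0.448% in WT and 3.76 ± 2.28% in KO, Glu at 0.913 ± 0.336% and 2.63 ± 1.55%, Cys at 0.104 ± 0.0365% and 0.472 ± 0.262%, and His at 4.71 ± 1.03% and 5.59 ± 3.34% (SD, n = 3 each). The libraries did not rise alike. Every KO library lay above every WT library only for Asp, Cys and Tyr. His was at 3.701, 5.757 and 4.669% in WT and at 3.649, 9.44 and 3.665% in KO, so KO replicate 2 set its mean. For Ala, Thr and Val, KO replicate 3 lay below every WT library. In corpus fluid all 11 full-length fold changes were positive, while 3 of 23 were positive among other fragments, where 13 isotypes were called lower. In caput fluid the medians were 1.43 for full-length reads, -0.29 for 5′ tRFs, 0 for 3′ tRFs and -0.56 for other fragments, with none called. Shares within an isotype are linked, since a lower fragment count alone raises the full-length share.

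Along the duct in WT mice, cauda was compared with caput. Here and in the interaction tests, segments were treated as independent. Same-numbered libraries of a genotype may share animals across segments, which is not stated. In tissue no isotype was called by either tool, where 18.8% of all features were called higher in cauda. Each tool gave 1 isotype at an unadjusted p under 0.05, against 1024 of all 2916 features by edgeR. By edgeR it was Arg (log2 fold change 1.2, adjusted p = 0.124), whose isodecoder tRNA-Arg-TCT-1 was called higher in cauda on its own (1.83, SE 0.602, adjusted p = 0.0346). The isodecoder was not called without WT caput replicate 1, 2 or 3 or WT cauda replicate 2 (adjusted p from 0.0608 to 0.167), and without the libraries numbered 3 Arg as a whole was called (1.52, adjusted p = 0.00733), where 23.5% of features were called higher. In fluid no isotype was called, with 2 at an unadjusted p under 0.05 by edgeR and 1 by DESeq2, where 14.8% of all features were called lower in cauda. By edgeR, 573 of all 1517 features had such a p. Asp had a log2 fold change of -2.42 (adjusted p = 0.0857) and iMet of -2.08 (adjusted p = 0.0815), and without WT cauda replicate 2 both were called, with Cys, Gly and SeC, 5 of 11, where that fit called 16.5% of 1612 features lower. By anticodon, Gly-TCC was lower in WT cauda fluid, at 0.368, 10.7 and 5.27 CPM against 20.2, 25.4 and 21.1 CPM in caput (log2 fold change -2.03, SE 0.725, adjusted p = 0.0453). No WT cauda library reached the lowest caput library. This call was lost when any of the 6 libraries but WT cauda replicate 2 was left out (adjusted p from 0.117 to 0.194), and with DESeq2 (adjusted p = 0.0594).

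Few calls fell on groups of tRNAs with a shared structure or modification. The class II tRNAs, Leu, Ser and SeC, which have a long variable arm, had 3 of 3 tested in tissue and fluid and 1 call over all KO comparisons, Leu in corpus fluid, where 19.2% of features were called higher. With the replicate block SeC was also called in cauda tissue. Their share of full-length counts was 0.443 to 1.22% in the 5 tissue libraries numbered 3 and 3.28 to 9.63% in the other 12, in both genotypes. Of the tRNAs that receive queuosine in the anticodon (Asn, Asp, His and Tyr), 3 were tested in tissue and 2 in fluid, with no call in any KO comparison, except that Asp was called in cauda tissue with the replicate block and without the libraries numbered 3. Their median fold changes were 1.12 in cauda tissue, 1.92 in caput fluid, 1.42 in corpus fluid and -1.3 in cauda fluid. Over all tested isotypes the medians were 0.9, 1.43, 2.14 and -0.57 in the same order. In fluid the list held only Asp and His. For 6 anticodons that the study chose for their fragments on these samples (Gly-GCC, Gly-CCC, Val-CAC, Val-AAC, Gln-TTG and Glu-TTC), all 6 were tested in tissue and in fluid and none was called between genotypes. Their fold changes ran from 1.34 to 2.22 in caput fluid, from 1.19 to 2.83 in corpus fluid and from -1.46 to 0.17 in cauda fluid. The medians over all tested anticodons were 1.52, 2.31 and -0.3 there. The choice of this list is not independent of the samples.

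Sperm gave no fold change by edgeR, because no isotype passed the filter. Without that filter DESeq2 called 3 of 14 isotypes, Glu, Gly and Val (smallest adjusted p = 0.00232), where 1.34% of 3520 features were called lower. Glu had 38, 2, 10 and 0 counts in the WT libraries and 5, 0, 1 and 0 in KO. Gly had 69, 2, 9 and 0 in WT and 1, 5, 9 and 0 in KO, and Val 28, 2, 10 and 0 in WT and 0, 2, 3 and 0 in KO. Both genotypes had libraries at 0 for Glu, Gly and Val, so the levels overlapped. In CPM, WT replicate 3, with 45 full-length counts in all, was the highest of the 8 for all 3, at 5.28 for Glu, 4.75 for Gly and 5.28 for Val. The next highest libraries had 0.78 CPM of Glu, 1.08 of Gly and 0.78 of Val, and the highest KO libraries 0.177, 0.136 and 0.0452.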

How the data were processed

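The deposited values are raw counts of reads per feature, 1 table each for tissue, fluid and sperm, which the authors made from adapter-trimmed, deduplicated reads aligned to mature tRNAs (from gtRNAdb, with introns removed and CCA added) and other small RNAs of mouse build mm10. The submitters' processing notes name cutadapt and UMI-tools, and the study's methods name bowtie2 and a modified tRAX. A read was full-length when it began within 3 nt and ended within 5 nt of the mature ends. A read that matched several isodecoders equally was counted on each, so sums over isodecoders count it more than once: they were 1.16, 1.27 and 1.18 times the most counted isodecoder's sums in tissue, fluid and sperm.

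Here mature tRNA rows were summed by isotype and read type. The whole table was fitted by segment and genotype with edgeR 4.0.16 (R 4.3.3; TMM factors, filterByExpr with a minimum count of 10 and total of 15, quasi-likelihood test, Benjamini-Hochberg adjustment over all features). The threshold was 0.05 and 1 on the log2 scale. DESeq2 1.42.0 was an alternative. Other alternatives were DESeq2's size factors, library totals, TMM factors from other RNAs, no filter, the most counted isodecoder, 2 groups alone, a replicate block and leaving out each library. CPM used the TMM factors. Shares were tested by exact two-sided permutation on the log2 scale, or on the shares themselves in sperm, where 2 libraries held 0. Scripts were tested on simulated counts. Figures were drawn with matplotlib 3.10.9.

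Named with values were isotypes that were called or among the 3 largest in the WT group, called or largest anticodons, and called isodecoders; Lys, SeC, Cys, Arg, Asp in cauda tissue and cauda fluid, Asp and iMet along the duct, Val in sperm, and the anticodons within isotypes were added after their values were seen. The members and lists were chosen with earlier results of these data known. In cauda tissue, deviations of same-numbered libraries from their group means correlated at 0.288, 0.238 and 0.588, so the numbers were taken to pair them. Differently numbered libraries correlated at -0.443 to 0.205, so the pairing of replicates 1 and 2 rests on small differences. No sequence is shown.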

Additional observations from a re-analysis of the deposited data

Results flagged for a closer look

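Of 10 checks for a library far from the others in the 2 sperm groups of 4, 3 found one. The checks covered the full-length share and the isotypes Asp, Gly, Glu and Val. The rule's rate of about 1 in 20 holds for normally distributed values. These low counts with many zeros need not follow it, so no excess can be read from the 3. WT cauda sperm replicate 3 had 5.28 CPM of full-length Glu and 5.28 CPM of full-length Val, each from 10 counts in the shallowest library. KO cauda sperm replicate 1 had 0.177 CPM of full-length Glu, from 5 counts. The KO change of iMet differed between corpus and cauda fluid by 5.76 on the log2 scale in edgeR's interaction test. Its corpus fluid counts were 0, 0 and 1 in WT and 3, 5 and 2 in KO.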

How the results depend on the processing

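Calls of isotypes under the alternatives were as follows. In cauda tissue 3 were called with the replicate block and 1 without the libraries numbered 3 (an alternative chosen after seeing the data, like the same omission elsewhere), which also gave 1 for WT cauda against caput tissue. In caput fluid 4 were called with 2 groups alone. In corpus fluid 0 were called with TMM factors from other RNAs, 1 with the most counted isodecoder and 4 with 2 groups alone. The shares of all features called in these corpus fluid fits are not given here. The main fit called 19.2% higher, but that share belongs to another fit. Neither an excess nor a lack of isotypes can be read from these counts. The corpus against cauda interaction gave 0 with DESeq2's size factors, with library totals and with TMM factors from other RNAs. Sperm gave 3 with DESeq2. Over omissions of 1 library the counts ran from 0 to 2 in corpus fluid, from 0 to 5 for WT cauda against caput fluid, from 0 to 3 for the interaction and from 0 to 3 in sperm. The sperm count above 0 came without WT replicate 4, where isotypes passed the filter only through the WT libraries in which they are high, so it says nothing of KO. Same-numbered libraries did not all deviate together in caput tissue (correlations 0.0639, 0.505 and 0.724), corpus tissue, fluid or sperm. The replicate block there gave 0 calls in caput and corpus tissue, caput and cauda fluid and sperm, and 3 in corpus fluid (iMet, Lys and Val). Those 3, and the counts over omissions above, are likewise given without the share of all features called in those fits. They are not set against a background.

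Under at least 1 alternative or omission, the fold change changed sign for 11 of 18 tested isotypes in caput tissue, 15 of 18 in corpus tissue, 8 of 18 in cauda tissue, 2 of 11 in caput fluid, 1 of 11 in corpus fluid and 10 of 11 in cauda fluid; the cause was not tested. For the isotypes named with values, the changes were as follows. Caput tissue Glu was -0.0151 with DESeq2's size factors, -0.0508 with library totals, -0.0324 with DESeq2 and -0.0548 without the libraries numbered 3. In corpus tissue, His, Glu and Gly were -0.171, -0.164 and -0.186 with library totals, -0.344, -0.411 and -0.254 without the libraries numbered 3, and -0.0604, -0.0708 and -0.0269 with 2 groups alone. Corpus tissue Glu was -0.079 and Gly -0.0312 with the replicate block, and Glu -0.0418 with the most counted isodecoder. Cauda tissue His was -0.345 with library totals and -0.228 with TMM factors from other RNAs. Cauda fluid Val was -0.0189 with DESeq2 and Gly 0.354 with the replicate block, and caput fluid SeC was 0.629 with the block. Over omissions of 1 library, caput tissue His ran from -0.15 to 0.665, Glu from -0.247 to 0.224 and Gly from -0.11 to 0.681. Corpus tissue His ran from -0.387 to 0.776, Glu from -0.429 to 0.758 and Gly from -0.108 to 0.363, and cauda tissue His from -0.0624 to 0.747. Cauda fluid Val ran from -1.39 to 1.37, Glu from -2.71 to 0.113, Gly from -1.11 to 1.51 and Asp from -3.29 to 0.0848, and caput fluid SeC from -1.14 to 2.79.

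The log2 ratio of the full-length share in corpus tissue was -0.0233 against all counts, and -0.0923 both in replicate pairs and without the libraries numbered 3. Over omissions it ran from -0.0594 to 0.517 in caput tissue, from -0.0923 to 0.75 in corpus tissue, from -0.897 to 0.959 in cauda fluid and from -4.05 to -1.91 in sperm, where the exact permutation p was under 0.05 only without WT replicate 4. Depth limits fluid and sperm, where most isotypes had under 10 counts in some library.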
